A study of Rattus norvegicus with 6 samples.

Results

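The proteasome is the protease complex that degrades most ubiquitin-tagged proteins in the cytosol and nucleus, and the transcripts of its constitutive subunits, assembly chaperones and regulators are described here across the cells of the rat hippocampus. The 41 members are the genes whose symbols start with Psma, Psmb, Psmc, Psmd, Psme, Psmf or Psmg and end in a number, without the immunoproteasome subunits Psmb8, Psmb9 and Psmb10. They were taken by symbol from the 30452 genes of one pooled single-cell count matrix. They comprise 7 genes of the 20S alpha ring, 7 of the 20S beta ring, 6 ATPases and 3 other subunits of the 19S base, 8 subunits of the 19S lid, 5 assembly chaperones, and 5 activators and inhibitors that bind the 20S core outside the 19S particle. Psma3, Psmb11, Psmd9 and Psmd10 had no row under these symbols in the matrix, so the sums given here lack them.

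The study sampled the hippocampus of male rats 2 months after whole-brain irradiation with 20 Gy (3 samples), against control hippocampus (3 samples). The labels give no strain, age or number of animals behind a sample. The tissue was dissociated with enzymes, red cells were lysed and dead cells were removed with beads before droplet capture and sequencing of transcript 3′ ends. The matrix holds 6 libraries, told apart by the suffix of their cell barcodes, and none of the 6 could be tied to a labelled sample. Irradiated and control hippocampus were therefore not compared. The libraries serve as separate measurements of each cell class, and their condition is not given.

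After filtering, 44800 of 58078 barcodes were kept, with a median of 4978 unique molecular identifiers (UMIs, each marking 1 captured transcript molecule). The libraries held 46853113 to 62094407 UMIs each, and 241 barcode sequences occurred in 2 or more libraries among the kept cells. Cells were clustered without the proteasome genes and named from marker genes. The named classes with at least 100 cells were astrocyte-like (10688 cells), mature oligodendrocyte-like (890), T or NK cell-like (779), cycling (298), neutrophil-like (201), oligodendrocyte precursor-like (182), neuroblast-like (131), endothelial cell-like (129) and microglia-like cells (20072). A further 6647 cells in 3 clusters high in Clec7a and Lyz2 were kept together as Clec7a Lyz2 myeloid cells. Clusters 8, 13, 16 and 18 kept their numbers, and clusters 16 and 18 were Clec7a Lyz2 myeloid cells set apart by a level of the interferon-induced gene Ifit3 at least 5 times that of the lowest such cluster, at 57.1 and 744 CPM (counts per 1000000 UMIs of the class). The astrocyte marker Aqp4 had 1808 CPM in astrocyte-like against 45.4 CPM in microglia-like cells, and the T cell receptor complex gene Cd3e 478.2 CPM in T or NK cell-like against 0.591 CPM in microglia-like cells. The microglial receptor gene P2ry12 had 20.5 CPM in astrocyte-like against 863.7 CPM in microglia-like cells. No cluster was named for mature neurons. Classes were spread unevenly over libraries: libraries 1, 2 and 3 held 4591, 6573 and 7219 microglia-like cells, and libraries 4, 5 and 6 held 923, 609 and 157. Of the Clec7a Lyz2 myeloid cells, libraries 1, 2 and 3 held 2, 3 and 2, and libraries 4, 5 and 6 held 1560, 2802 and 2278. The microglia-like counts leave out cluster 8, whose microglia markers summed to 93.2% of the microglia-like level. Of its 2179 cells, 2088 came from libraries 4, 5 and 6. The astrocyte-like counts leave out cluster 13, whose astrocyte markers summed to 95.4% of the astrocyte-like level. Of its 1201 cells, 1186 came from library 3.

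In the 20S core, 2 outer alpha rings guard the entrance of a barrel whose inner beta rings carry the proteolytic sites. Psmb5, Psmb6 and Psmb7 encode the constitutive catalytic subunits, with chymotrypsin-like, caspase-like and trypsin-like activity. Under interferon, and constitutively in many immune cells, these are replaced by Psmb8, Psmb9 and Psmb10 to form the immunoproteasome, which generates peptides for MHC class I. The 19S particle binds ubiquitinated substrates, removes their ubiquitin, and unfolds and feeds them into the core. Other caps replace it: PA28αβ, built from Psme1 and Psme2 and induced by interferon, PA28γ (Psme3) in the nucleus, and PA200 (Psme4). Psmf1 encodes the inhibitor PI31. In mammalian cells with an impaired proteasome, the factor NRF1 (Nfe2l1) raises many subunit genes together through antioxidant response elements.

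Sequences of 6 promoters are shown. Those of Psme1, Psme2, Psmb7, Psmc1 and Psme4 belong to the members with the widest gaps between astrocyte-like or mature oligodendrocyte-like and microglia-like cells, and that of Psmb5 is shown beside Psmb7 as the promoter of another catalytic subunit gene. They run from 250 bases before to 50 bases after the RefSeq start on the GRCr8 assembly, 5′ to 3′ on the gene's strand, with matched motif letters in capitals. Psme1 (ENSRNOG00000019041) lies on the plus strand at chr15:33038721-33039020. Psme2 (ENSRNOG00000019246) lies on the minus strand at chr15:33052702-33053001. Psmb5 (ENSRNOG00000013386) lies on the minus strand at chr15:32047330-32047629. Psmb7 (ENSRNOG00000011732) lies on the minus strand at chr3:42827421-42827720. Psmc1 (ENSRNOG00000003951) lies on the plus strand at chr6:125122247-125122546. Psme4 (ENSRNOG00000060340) lies on the plus strand at chr14:108706393-108706692.
Psme1: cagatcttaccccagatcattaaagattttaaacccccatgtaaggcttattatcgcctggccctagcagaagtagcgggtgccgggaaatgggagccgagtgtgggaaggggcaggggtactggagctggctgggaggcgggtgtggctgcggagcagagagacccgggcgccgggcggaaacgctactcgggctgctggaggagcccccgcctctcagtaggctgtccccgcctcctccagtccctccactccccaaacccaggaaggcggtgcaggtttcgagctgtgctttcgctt
Psme2: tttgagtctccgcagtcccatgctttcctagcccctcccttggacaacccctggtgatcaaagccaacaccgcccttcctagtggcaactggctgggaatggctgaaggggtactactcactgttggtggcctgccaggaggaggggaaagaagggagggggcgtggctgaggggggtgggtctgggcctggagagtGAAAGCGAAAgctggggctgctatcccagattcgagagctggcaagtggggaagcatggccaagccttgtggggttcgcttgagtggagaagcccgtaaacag
Psmb5: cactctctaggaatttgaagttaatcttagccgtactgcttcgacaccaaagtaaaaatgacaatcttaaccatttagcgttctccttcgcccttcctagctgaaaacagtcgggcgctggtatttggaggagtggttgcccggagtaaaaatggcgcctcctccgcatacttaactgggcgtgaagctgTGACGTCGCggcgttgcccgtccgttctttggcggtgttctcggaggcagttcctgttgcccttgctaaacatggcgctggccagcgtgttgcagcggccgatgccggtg
Psmb7: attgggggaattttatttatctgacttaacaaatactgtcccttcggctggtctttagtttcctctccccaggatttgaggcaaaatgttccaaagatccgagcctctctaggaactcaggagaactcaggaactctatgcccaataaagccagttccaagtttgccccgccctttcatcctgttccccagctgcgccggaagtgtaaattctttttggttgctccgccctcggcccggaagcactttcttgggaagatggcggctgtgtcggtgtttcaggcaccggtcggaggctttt
Psmc1: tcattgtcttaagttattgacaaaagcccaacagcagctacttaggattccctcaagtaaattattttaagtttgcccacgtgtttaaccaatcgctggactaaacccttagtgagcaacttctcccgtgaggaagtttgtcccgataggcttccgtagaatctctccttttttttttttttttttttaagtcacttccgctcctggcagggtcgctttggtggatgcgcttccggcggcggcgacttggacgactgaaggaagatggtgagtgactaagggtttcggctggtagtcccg
Psme4: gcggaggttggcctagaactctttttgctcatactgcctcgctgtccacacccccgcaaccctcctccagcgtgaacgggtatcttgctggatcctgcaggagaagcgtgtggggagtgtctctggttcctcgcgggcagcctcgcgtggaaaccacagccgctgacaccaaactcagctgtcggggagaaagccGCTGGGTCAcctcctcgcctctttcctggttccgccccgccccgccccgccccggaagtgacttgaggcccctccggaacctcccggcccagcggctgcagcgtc
The capitals in Psme2 match the core of the interferon-stimulated response element on the minus strand, starting 53 bases before the start. Those in Psmb5 and Psme4 match the core of the antioxidant response element, starting 60 and 55 bases before it. The windows of Psme1, Psmb7 and Psmc1 hold no full match to a motif searched. The last letters of the Psme1 window fit the beginning of the interferon-stimulated core, and a match running past its edge was not searched.

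The motifs were searched on both strands in the 37 of 41 members with a promoter in the table. The interferon-stimulated core, TTTC repeated after any 2 bases, occurred in 5 of the 37 (13.5%; Psma4, Psmb3, Psmd7, Psme2 and Psmg4), against 3.92% of all 33469 promoters, and in 2 of the 3 immunoproteasome genes (Psmb8 and Psmb10). The antioxidant response core TGACNNNGC occurred in 6 of the 37 (16.2%; Psmb2, Psmb5, Psmb6, Psmd1, Psmd3 and Psme4), against 12.1% of all promoters. The gamma-activated site TTCNNNGAA occurred in 3 of the 37 (8.11%; Psmc6, Psmd3 and Psmd7), against 8.87% of all promoters. The letters of 1 motif did not overlap another in the sequences printed, and a match of letters was not examined for binding.

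Among the classes with at least 100 cells, all 41 members summed to between 3199 CPM in neutrophil-like and 7242 CPM in neuroblast-like cells, with 3976 CPM in microglia-like cells. The summed level of the 39 members other than Psme1 and Psme2 was highest in neuroblast-like cells and lowest in neutrophil-like cells, with microglia-like cells the next lowest. With exact Poisson 95% intervals that cover counting error only, it was 6931 (6797 to 7067) in neuroblast-like, 5389 (5326 to 5453) in mature oligodendrocyte-like and 5384 (5231 to 5540) in endothelial cell-like cells. Cycling cells had 5082 (4998 to 5166), oligodendrocyte precursor-like cells 4633 (4505 to 4764), astrocyte-like cells 4554 (4539 to 4570) and T or NK cell-like cells 4385 (4318 to 4454). The Clec7a Lyz2 myeloid cells had 3893 (3873 to 3913), neutrophil-like cells 2815 (2632 to 3007), and microglia-like cells 3478 (3467 to 3489). Mature oligodendrocyte-like and endothelial cell-like cells could not be told apart in this order, nor could oligodendrocyte precursor-like and astrocyte-like cells, since their intervals overlap. The neuroblast-like class also held dividing cells: the cycling marker Mki67 had 311.2 CPM there, against 1419 in cycling and 1.71 in microglia-like cells. The part of cell division in the neuroblast-like level was not tested.

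These levels are fractions of the captured RNA, and cells of a class also differ in how much RNA was captured. The median cell held 9574 UMIs in the neuroblast-like class, 1222 in the neutrophil-like class and 4688 in the microglia-like class. Per cell, all 41 members together gave 81.5 UMIs in neuroblast-like, 4.97 in neutrophil-like and 20.4 in microglia-like cells. The levels also depend on the transcripts they are divided by: ribosomal protein genes took 20.5% of UMIs in T or NK cell-like, 2.46% in astrocyte-like and 6.56% in microglia-like cells. Only 3′ ends are counted, without scaling by transcript length, so a gene is compared here between classes and not with other genes.

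**Figure D1:**
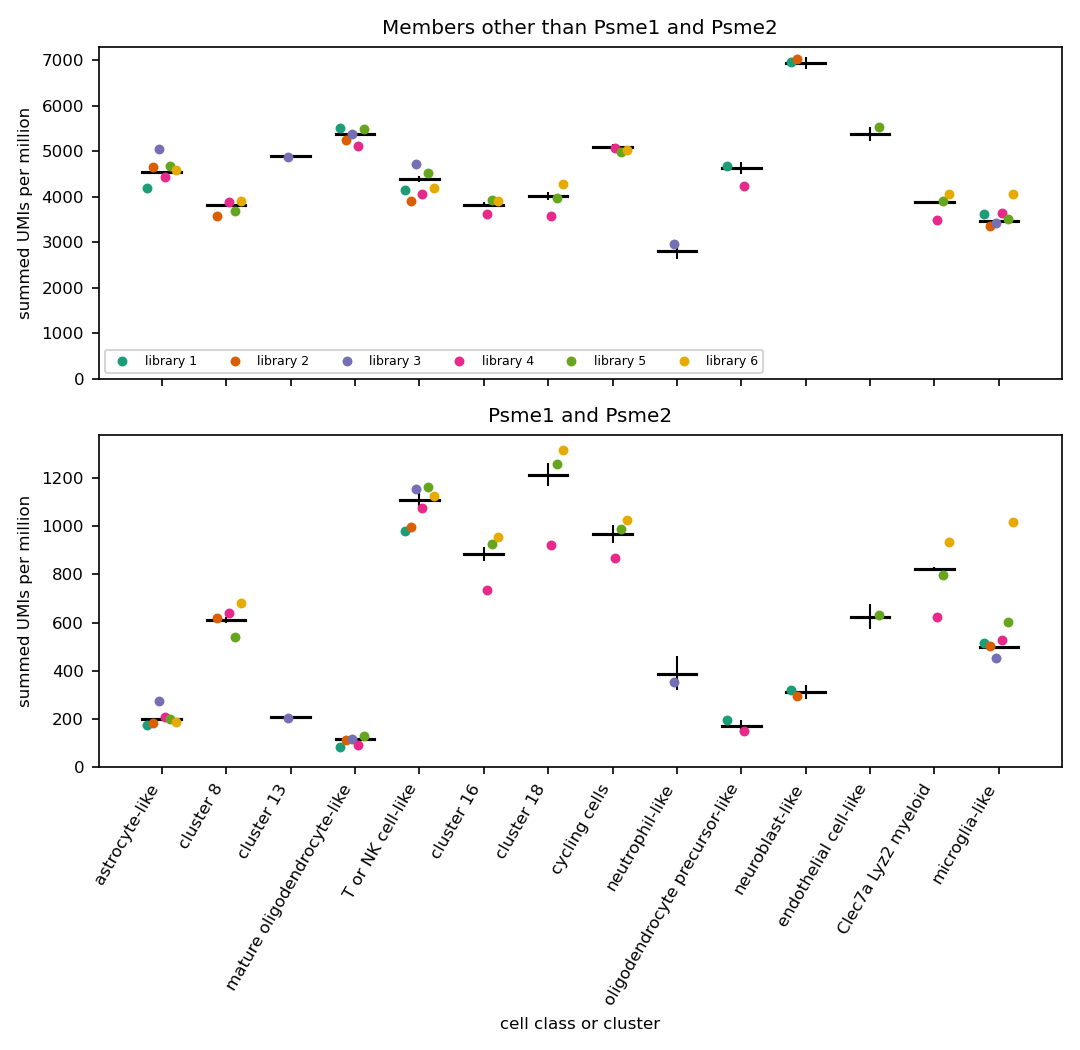
Summed CPM of a class or cluster (vertical axes, starting at 0) for the 39 members other than Psme1 and Psme2 (upper panel) and for Psme1 and Psme2 (lower panel). Bars mark the value over all libraries with its exact Poisson 95% interval, and points are the libraries with at least 50 cells of the class; neuroblast-like cells stand highest above (6931) and cluster 18 below (1214).

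Within a class, libraries varied more than counting error. For the same 39 members the libraries ranged from 4201 to 5051 CPM in astrocyte-like cells (median 4616), from 5121 to 5502 in mature oligodendrocyte-like cells (median 5381, 5 libraries). Those of microglia-like cells lay between 3350 and 4053 CPM (median 3569). In CPM, every library with at least 50 cells was thus higher in astrocyte-like and in mature oligodendrocyte-like cells than any library of microglia-like cells. For astrocyte-like cells this depends on the scaling. With median-of-ratios factors the sum over all members was 4075 in astrocyte-like and 4350 in microglia-like cells. The 6 libraries of T or NK cell-like cells, at 3909 to 4726 CPM (median 4172), overlapped those of microglia-like cells. Both neuroblast-like libraries with at least 50 cells, at 6964 and 7035 CPM, stood above every library of the other classes.

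Most members had the classes at the ends of this order as their own extremes. Of the 40 members with a mean of at least 10 CPM, 24 were highest in neuroblast-like and 25 lowest in neutrophil-like cells among the 14 classes and clusters with at least 100 cells. The same counts were not taken over all genes, so these are a description of the members alone. Psmd14, the deubiquitinase of the 19S lid, had 169.5 CPM in neuroblast-like and 19.2 CPM in neutrophil-like cells, against 53.7 CPM in microglia-like cells. Psmc5, an ATPase of the base, varied least, with 153.6 CPM in mature oligodendrocyte-like and 90.2 CPM in T or NK cell-like cells at its extremes. Low counts limit the neutrophil-like values: Psmd5 had 1 UMI there, and Psmg2 and Psmg3 had 3 each.

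Across the 14 classes and clusters, the 35 genes of the 20S core, the 19S particle and the chaperones were each set against the sum of the others. Their levels correlated with it at r = 0.37 to 0.94, with a median of 0.81. The classes share libraries, so this is a description with no test. Against the summed level of Psmb8, Psmb9 and Psmb10 the same 35 genes had a median r of -0.56. Psme1 and Psme2 had an r of -0.28 and -0.31 with the core sum and of 0.89 and 0.93 with the immunoproteasome sum. Psme4 and the inhibitor gene Psmf1 followed neither closely, with r of 0.25 and 0.27 with the core sum and -0.61 and 0.29 with the immunoproteasome sum.

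**Figure D2:**
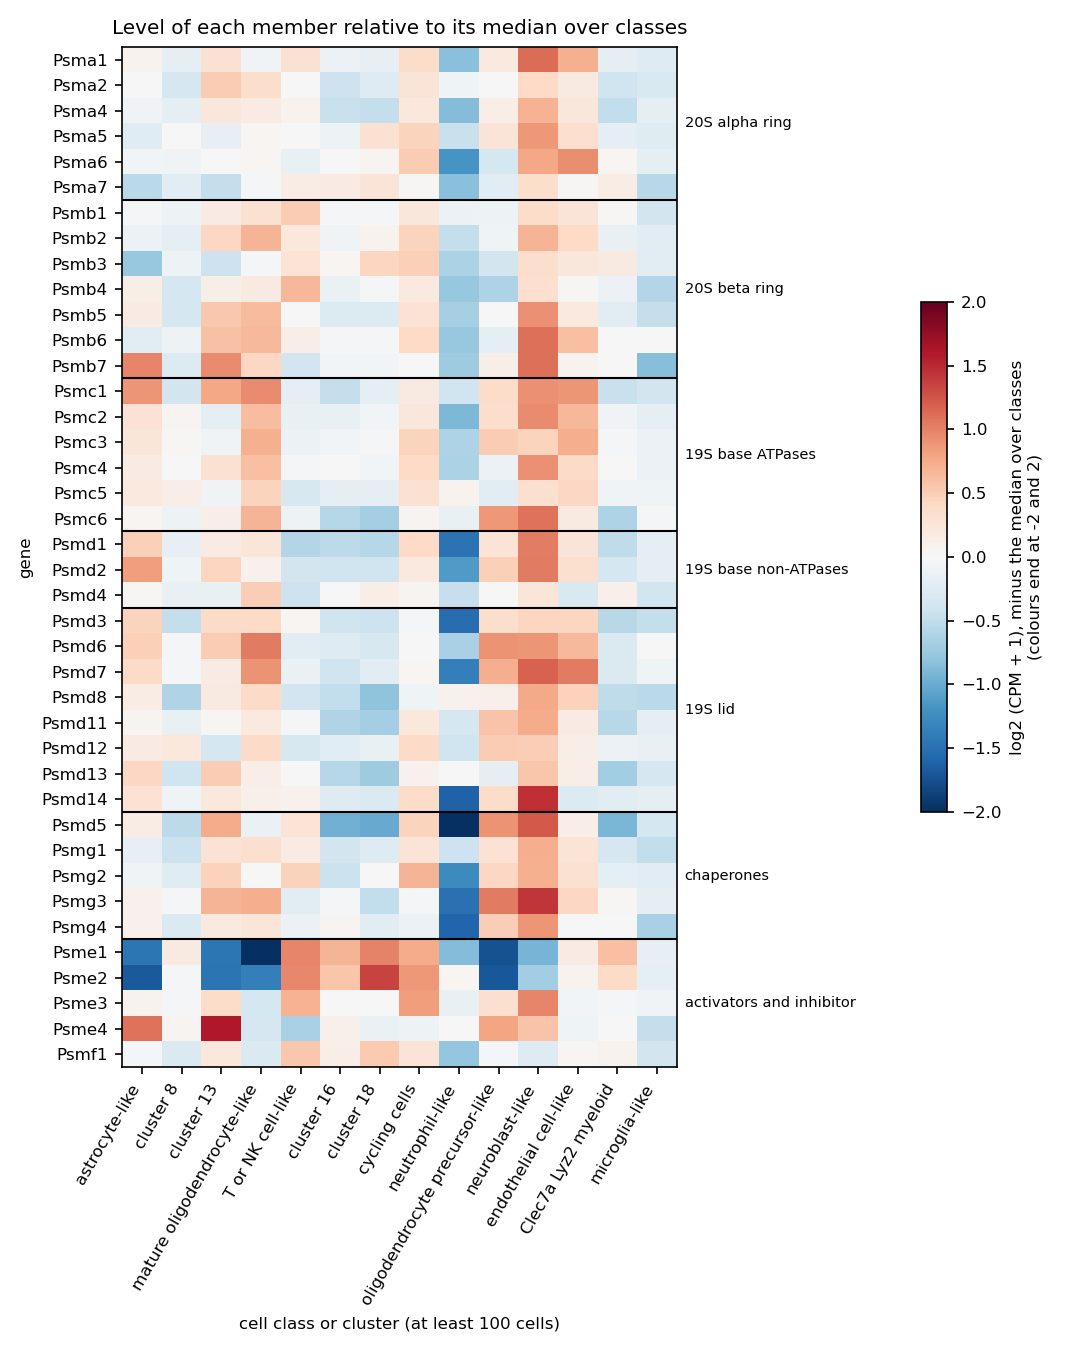
Level of each of the 40 members past the filter in 14 cell classes or clusters, as log2 (CPM + 1) minus the gene's median over those classes, with genes grouped by role; colours end at -2 and 2. Most core genes are red in neuroblast-like and blue in neutrophil-like cells, while Psme1 and Psme2 are blue in astrocyte-like and mature oligodendrocyte-like cells and red in cluster 18 and the T or NK cell-like class.

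Psma8, a testis-specific alpha subunit, was the 1 member under the filter. It had 9 UMIs in all kept cells, of which 6 were in microglia-like cells. Every count below is therefore over the 40 remaining members. By symbol, 18 of the 41 members have 50 pseudogenes or like genes in the RefSeq symbol table, most for Psmb3 (10), Psma6 (5) and Psme3 (4). Of these 50, 1, a copy of Psme1, has a row of its own in the matrix. Their sequences were not compared, so the counts of the 18 are uncertain. How reads shared with such copies were counted is not given in the sources used here.

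In CPM, astrocyte-like cells had more of the 19S particle and less PA28αβ than microglia-like cells. Scaled by median-of-ratios factors instead, the sum over all members was lower in astrocyte-like cells (4075) than in microglia-like cells (4350), so the direction of the whole sum depends on the scaling, which moves the median log2 ratio of all genes from 0.28 to -0.13. The same factors shift every gene's ratio alike, so the 19S differences that follow, which are in CPM, would also shrink under them. The summed 19S base subunits other than ATPases stood at 464.2 against 293.8 CPM, the lid at 843.6 against 580.1 CPM and the ATPases at 698.0 against 514.5 CPM. The alpha ring differed least, at 1048 against 959.1 CPM. Of the 40 members, 11 (27.5%) were at least 1.5-fold higher in astrocyte-like cells, while 39.4% of the 9625 genes past the filter were; 2 members (5.0%) were at least 1.5-fold lower, while 23.1% of all genes were. A share of higher members below the background is no result about the members as a group. Their median log2 ratio was 0.33, against 0.28 for all genes. Above 0 were 35 of 40 members and 5877 of all 9625 genes.

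The member with the widest gap was Psmb7, the trypsin-like catalytic subunit. It had 131.1 CPM in the lowest, 153.4 in the median and 163.7 in the highest of 6 libraries of astrocyte-like cells, against 31.39, 51.01 and 78.72 CPM in microglia-like cells. The libraries of the classes did not overlap, and the log2 ratio over all cells was 1.83. The other catalytic subunits differed in size or direction: Psmb5 had 227.8 against 146.2 CPM (log2 0.64), with library ranges that overlapped, and Psmb6 had a log2 ratio of -0.24 and was higher in 3 of 6 libraries. Psmb3, a non-catalytic beta subunit, fell just short of the limit on the lower side with 144.4 against 212.5 CPM (log2 -0.55). In library 3, which stood apart for both rings of the 20S core, Psmb6 reached 215.3 CPM in astrocyte-like cells, against 75.48 to 109.3 CPM in their other libraries. Of the 364 astrocyte-like cells of library 3, 255 came from cluster 9 and 4 from cluster 0, whose median cells held 1304.5 and 9451 UMIs. In the other libraries, cluster 9 gave 116 to 470 cells and cluster 0 gave 341 to 1874. The part of this makeup in the library 3 values was not tested.

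Psme4, the PA200 cap, was the second in size. Its libraries had 92.12 CPM at the lowest, 112.7 at the median and 169.1 at the highest in astrocyte-like cells, against 33.1, 49.97 and 84.63 CPM in microglia-like cells, without overlap (log2 1.57). Within astrocyte-like cells its level differed between clusters: 207.0 CPM in cluster 11, 123.4 in cluster 0, 48.4 in cluster 14 and 47.7 in cluster 9, whose median cells held 3666, 9451, 2683 and 1304.5 UMIs. Psmc1, an ATPase of the base, had 117.7, 126.0 and 136.1 CPM in the lowest, median and highest library, against 46.46, 48.53 and 65.02 CPM in microglia-like cells (log2 1.25). Psmd2, a large scaffold subunit of the base, had 125.2, 152.3 and 161.1 CPM, against 72.63, 76.56 and 94.48 CPM in microglia-like cells (log2 1.01). Neither gene's libraries overlapped. The 7 remaining members at least 1.5-fold higher were the lid genes Psmd3, Psmd8 and Psmd13, the base gene Psmd1, the beta ring genes Psmb4 and Psmb5, and the chaperone gene Psmg4, at log2 0.64 to 0.92. Each of these 7 was higher in all 6 libraries, apart from Psmg4 with 5 of 6.

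Both PA28αβ genes were lower in astrocyte-like cells in all 6 libraries. Psme1 had 126.0, 147.2 and 203.5 CPM in the lowest, median and highest library, against 326.2, 384.5 and 765.0 CPM in microglia-like cells (log2 -1.27). Psme2 had 44.85, 49.61 and 72.41 CPM, against 124.5, 142.8 and 253.4 CPM (log2 -1.48). The immunoproteasome genes shared this direction, with log2 ratios of -1.99 for Psmb8, -1.68 for Psmb9 and -1.48 for Psmb10. Free RNA was not estimated or removed: the 13 measured microglia markers summed to 5.05% of their microglia-like level in astrocyte-like cells (548.3 to 5305 CPM by library, 12 of 13 with UMIs, Siglech at 0). PA28αβ stood at 0.397 of its microglia-like level, and the part of free RNA in that value was not tested. In astrocyte-like cluster 14, PA28αβ reached 416.1 CPM and the immunoproteasome sum 384.8 CPM, against 183.5 and 94.2 CPM in cluster 0. Of its 1065 cells, 1019 came from library 4. Myeloid genes moved with it, Lyz2 at 1618 against 174.4 CPM and Clec7a at 46.5 against 6.20 CPM, while the astrocyte gene Slc1a2 stood at 549.3 against 1907 CPM. Their part in the PA28αβ level was not tested.

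Mature oligodendrocyte-like cells had more of nearly every core subunit and the lowest PA28αβ of the classes with at least 100 cells. Of the 40 members, 20 (50.0%) were at least 1.5-fold higher than in microglia-like cells, against a background of 34.8% of all genes, and 2 (5.0%) were at least 1.5-fold lower, against 24.3%. The 20 comprised 6 of 7 beta ring genes, 5 of 6 ATPases, 4 of 8 lid genes, 3 of 5 chaperones, 1 of 3 other base genes and 1 of 6 alpha ring genes. The median log2 ratio was 0.59 for members and 0.19 for all genes. Above 0 were 37 of 40 members and 5562 of all 9625 genes. All 3 constitutive catalytic genes were among those higher, with a sum of 602.7 CPM, against 304.5 CPM in microglia-like cells.

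Psmc1 had 127.1, 123.4, 168.2, 85.95 and 134.0 CPM in libraries 1 to 5 of mature oligodendrocyte-like cells, all above the 65.02 CPM of the highest library of microglia-like cells (log2 1.32). Psmb7 had 109.6, 96.5, 71.13, 134.3 and 118.4 CPM, 4 of 5 above the highest library of microglia-like cells at 78.72 CPM (log2 1.27). Psmb5 had 326.5, 295.1, 342.1, 286.5 and 321.3 CPM, against 137.2 to 205.4 CPM over the libraries of microglia-like cells (log2 1.11). Each of the 20 was higher in mature oligodendrocyte-like cells within all 5 libraries. The lid genes Psmd6 and Psmd7 followed at log2 1.03 and 1.00.

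Psme1 was the lowest member here. It had 26.3, 63.1, 42.9, 37.6 and 65.97 CPM in libraries 1 to 5, against 326.2 to 765.0 CPM in microglia-like cells (log2 -2.72). Psme2 had 56.97, 50.11, 72.26, 53.72 and 61.95 CPM, against 124.5 to 253.4 CPM (log2 -1.17). No library of mature oligodendrocyte-like cells overlapped microglia-like cells for either gene. The nuclear activator gene Psme3 had a log2 ratio of -0.27, short of the limit. Microglia markers summed to 6.51% of their microglia-like level in these cells (954.4 to 2770 CPM by library, 12 of 13 with UMIs, Siglech at 0), PA28αβ stood at 0.230 of its own, and the part of free RNA in that value was not tested. The class joins 2 clusters: the 54 cells of cluster 31 had 416.9 CPM of PA28αβ, against 94.4 CPM in the 836 cells of cluster 15. Markers of other cells were also higher in cluster 31, with Lyz2 at 2428 against 216.3 CPM, P2ry12 at 378.7 against 24.1 CPM and Slc1a2 at 661.9 against 73.5 CPM, and their part in the PA28αβ level was not tested.

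**Figure D3:**
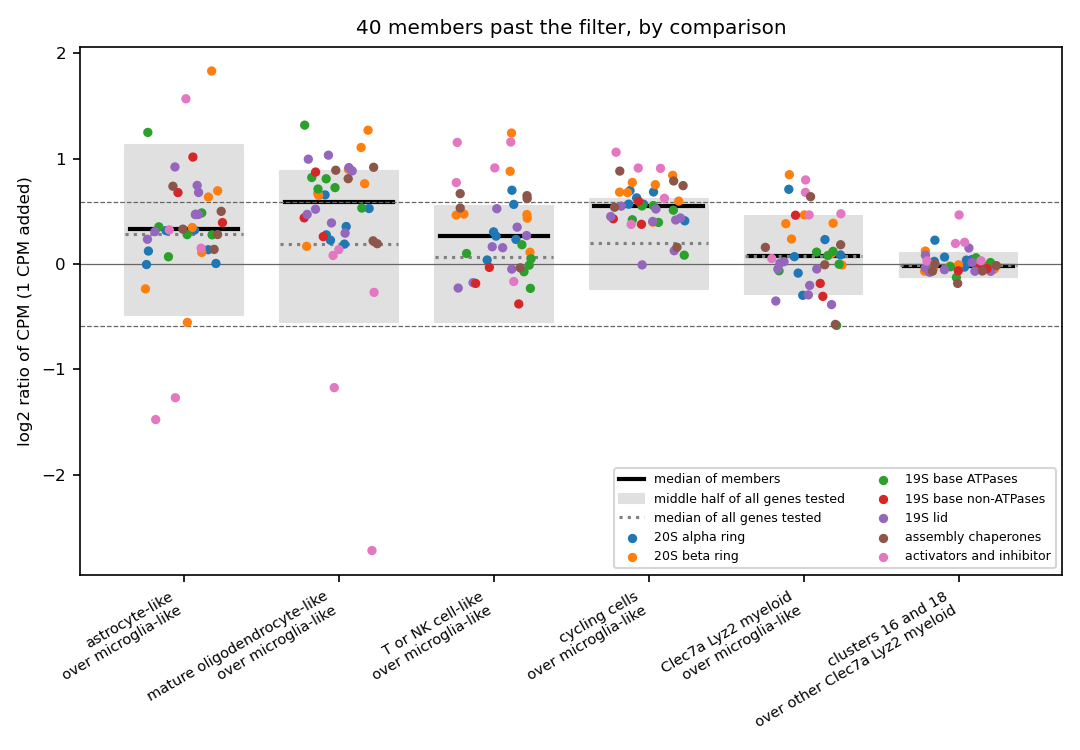
Log2 ratio of CPM (1 CPM added to both) for each of the 40 members past the filter in 6 comparisons, coloured by role; black bars are the member medians, dotted lines and grey boxes the median and middle 50% of all 9625 genes, and dashed lines the 1.5-fold limits. The members sit above the median of all genes in mature oligodendrocyte-like (0.59 against 0.19) and cycling cells (0.55 against 0.20) and close to it for Clec7a Lyz2 myeloid cells; Psme1 and Psme2 are the lowest points of the 2 comparisons at the left.

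T or NK cell-like cells carried high PA28αβ and more of some 20S genes, with the 19S particle near its microglia-like level. The ATPases summed to 509.1 against 514.5 CPM and the other base subunits to 263.1 against 293.8 CPM, while the beta ring summed to 1425 against 918.4 CPM. Of the 40 members, 10 (25%) were at least 1.5-fold higher, against a background of 23.8%, and 0 were at least 1.5-fold lower, against 24.3%. The median log2 ratio was 0.27 for members and 0.06 for all genes. The 10 were Psma7, Psmb1, Psmb4, Psme1, Psme2, Psme3, Psmf1 and the chaperone genes Psmd5, Psmg1 and Psmg2.

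Psmb4, a structural beta subunit, led with 201.3, 231.9 and 283.7 CPM in the lowest, median and highest of 6 libraries, against 88.94, 112.6 and 148.8 CPM in microglia-like cells (log2 1.24, no overlap). Psme2 had 241.3, 281.8 and 375.4 CPM, against 124.5, 142.8 and 253.4 CPM (log2 1.16), and Psme1 had 695.6, 804.7 and 852.7 CPM, against 326.2, 384.5 and 765.0 CPM (log2 1.15). Both PA28αβ genes were higher within all 6 libraries, though library 6 of microglia-like cells, with 157 cells, overlapped the T or NK cell-like range. The constitutive catalytic genes were short of the limit, at log2 0.47 for Psmb5, 0.11 for Psmb6 and 0.46 for Psmb7. Psmd1 was the lowest member at log2 -0.38, lower in all 6 libraries.

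Cycling cells had more of nearly all members. Of the 40, 17 (42.5%) were at least 1.5-fold higher than in microglia-like cells, against a background of 26.7%, and 0 were at least 1.5-fold lower, against 13%. The median log2 ratio was 0.55 for members and 0.20 for all genes. Above 0 were 39 of 40 members and 5981 of all 9625 genes. Within libraries 4, 5 and 6, 17, 17 and 8 members were at least 1.5-fold higher. The member medians there were 0.54, 0.50 and 0.32, against 0.024, 0.0 and 0.014 for all genes. The share of all genes called within each library was not counted. These libraries held 223 of the 298 cycling cells, against 1689 of the 20072 microglia-like cells, so the pooled ratio also sets libraries against each other. The 17 comprised 6 of 7 beta ring genes, 3 of 6 alpha ring genes, 3 of 5 chaperones, 1 of 3 other base genes and 4 of 5 activators and inhibitors, with 0 of 6 ATPases and 0 of 8 lid genes.

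Psme2 had 222.5, 302.7 and 294.0 CPM in libraries 4, 5 and 6 of cycling cells, against 124.5, 151.9 and 253.4 CPM in the same libraries of microglia-like cells (log2 1.06 over all cells). It was higher within each library, with overlap across libraries. Psme3, which in mammalian cells degrades the cell cycle inhibitor p21 without ubiquitin, had 53.48, 37.41 and 23.52 CPM, against 24.2, 22.68 and 24.6 CPM (log2 0.91), with 2 of 3 libraries higher. Psmg2, a chaperone of alpha ring assembly, had 46.58, 44.22 and 31.92 CPM, against 17.22, 21.06 and 18.45 CPM (log2 0.88), without overlap. Cycling cells were a mixture: their T or NK cell markers summed to 35.1% of the T or NK cell-like level and their microglia markers to 43.7% of the microglia-like level. Cluster 21 (229 cells) had 5775 CPM of all members and cluster 29 (69 cells) 6764 CPM, and the part of this makeup in the counts was not tested.

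The Clec7a Lyz2 myeloid cells, taken here with clusters 16 and 18, differed little from microglia-like cells in constitutive subunits. Of the 40 members, 5 (12.5%) were at least 1.5-fold higher, against a background of 19.9%, and 0 were at least 1.5-fold lower, against 13.5%. The median log2 ratio was 0.08 for members and 0.08 for all genes. The 5 were Psmb7 (78.95 against 43.42 CPM, log2 0.85), Psme1 (626.9 against 360.1 CPM, log2 0.80), the alpha subunit Psma7 (446.7 against 272.8 CPM, log2 0.71), Psme2 (221.3 against 137.7 CPM, log2 0.68) and the chaperone gene Psmg4 (49.71 against 31.56 CPM, log2 0.64). At the lower end, the ATPase gene Psmc6 (log2 -0.58) and the chaperone gene Psmd5 (log2 -0.57) were just short of the limit.

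Those counts set cells of different libraries against each other. Within libraries 4, 5 and 6, the log2 ratios were 0.49, 0.54 and 0.36 for Psma7, 0.49, 0.45 and -0.01 for Psmb7, and 0.59, 0.56 and -0.11 for Psme2. For Psme1 they were 0.21, 0.45 and -0.09, and for Psmg4 0.25, 0.65 and 0.13. By the median over these libraries, 0 members were at least 1.5-fold higher, and the share of all genes by that median is not given. The library and the cell class cannot be told apart in the pooled ratio.

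Among the Clec7a Lyz2 myeloid cells, clusters 16 and 18 together had 0 of 40 members at least 1.5-fold higher than clusters 2, 6 and 25, against a background of 2.45%, and 0 at least 1.5-fold lower, against 1.10%. The clusters differ in kind: cluster 16, with 775 cells, was led by MHC class II genes and its Ifit3 level of 57.1 CPM was near the 37.6 CPM of cluster 2, while cluster 18, with 359 cells, had Ifit2, Ifit3 and Mx1 among its leading genes. Cluster 16 alone also had 0 in each direction, against 2.36% higher and 2.04% lower. Cluster 18, with the higher Ifit3 level, had 1 member higher (2.5%), against a background of 4.14%, and 0 lower, against 5.48%. That member was Psme2, with 313.9, 417.1 and 445.0 CPM in libraries 4, 5 and 6 of cluster 18, against 173.8, 208.7 and 226.0 CPM in the other clusters (log2 0.96). The libraries did not overlap.

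Psme1 in cluster 18 was higher in the same 3 libraries, with 609.4, 842.5 and 873.2 CPM, against 448.8, 590.8 and 707.8 CPM in the other clusters (log2 0.40), short of the limit and with overlap across libraries. The immunoproteasome genes had log2 ratios of 0.79 for Psmb9, 0.72 for Psmb10 and 0.56 for Psmb8. These high levels were not particular to cluster 18. Cluster 25, with 142 cells and 11.2 CPM of Ifit3, had 1278 CPM of PA28αβ, against 1214 CPM in cluster 18. Its immunoproteasome sum was 1152 CPM, against 1264 CPM. The constitutive catalytic genes did not share this direction: Psmb5, Psmb6 and Psmb7 summed to 356.8 against 367.0 CPM (log2 -0.04).

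Among the named classes with at least 100 cells, the share of immunoproteasome transcripts was lowest in mature oligodendrocyte-like, neuroblast-like and astrocyte-like cells and highest in neutrophil-like and T or NK cell-like cells, with cluster 18 between those 2. Psmb8, Psmb9 and Psmb10 made up 10.2% of the UMIs of both catalytic sets in mature oligodendrocyte-like cells (exact binomial 95% interval 9.17% to 11.2%; libraries 8.13% to 11.8%), 13.2% in neuroblast-like and 19.2% in astrocyte-like cells (18.8% to 19.6%; libraries 13.2% to 23.1%). It was 68.7% in Clec7a Lyz2 myeloid cells. T or NK cell-like cells reached 75.6% (libraries 72.2% to 78.0%). The share was 78.0% in cluster 18 (libraries 77.4% to 78.7%) and 78.8% in neutrophil-like cells. Endothelial cell-like cells lay between at 41.7%, and oligodendrocyte precursor-like cells at 30.4%. Microglia-like cells had 56.1% (55.8% to 56.5%; libraries 50.9% to 64.4%). The library ranges of astrocyte-like, microglia-like and T or NK cell-like cells did not overlap. Because the genes are counted without scaling by length, the share is read between classes and not as the makeup of a proteasome.

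**Figure D4:**
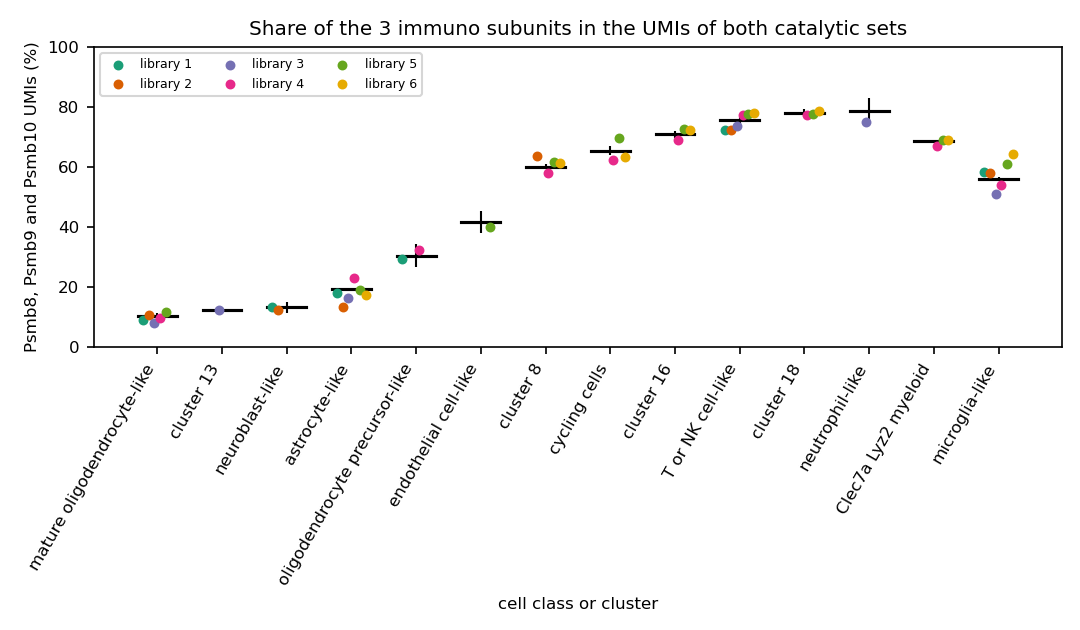
Share of Psmb8, Psmb9 and Psmb10 in the UMIs of both catalytic sets (vertical axis, percent), by cell class or cluster. Bars mark all libraries together with exact binomial 95% intervals, and points the libraries with at least 50 cells; mature oligodendrocyte-like cells stand lowest (10.2%), neutrophil-like cells and cluster 18 highest (78.8% and 78.0%).

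PA28αβ had a similar order with exceptions. Psme1 and Psme2 summed to 1214 CPM in cluster 18, 1111 in T or NK cell-like, 966.3 in cycling, 822.8 in Clec7a Lyz2 myeloid and 623.5 in endothelial cell-like cells. They summed to 311.2 CPM in neuroblast-like, 197.7 in astrocyte-like, 169.3 in oligodendrocyte precursor-like and 114.3 in mature oligodendrocyte-like cells, and to 497.8 in microglia-like cells. Endothelial cell-like cells had more PA28αβ than microglia-like cells but a lower immunoproteasome share (41.7% against 56.1%). Neutrophil-like cells had 384.3 CPM of PA28αβ (318.6 to 459.5) beside 903.1 CPM of the immunoproteasome sum. Among libraries of microglia-like cells, library 6 had 1018 CPM of PA28αβ, against 452.0 CPM in the lowest and 520.4 CPM at the median.

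The 19S subunits took 47.7% of the UMIs of the 19S and 20S genes in astrocyte-like (libraries 39.0% to 48.5%), 45.2% in mature oligodendrocyte-like (41.8% to 47.5%) and 48.5% in oligodendrocyte precursor-like cells. The share was 34.4% in T or NK cell-like (33.4% to 36.9%), 37.0% in Clec7a Lyz2 myeloid (35.8% to 38.5%), 38.9% in cycling and 42.5% in microglia-like cells (37.5% to 44.1%). T or NK cell-like cells lay below every library of microglia-like cells. In astrocyte-like cells the low value came from library 3, the library whose 20S rings were high and whose astrocyte-like cells came mostly from cluster 9. Cluster 13, high in astrocyte markers but counted apart, held 1186 cells of library 3 and had a share of 40.8%.

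Of 32 other pathway genes listed, 29 were measured and 28 passed the filter. All 3 immunoproteasome genes were at least 1.5-fold lower than in microglia-like cells in astrocyte-like and in mature oligodendrocyte-like cells. All 3 were at least 1.5-fold higher in T or NK cell-like, cycling and Clec7a Lyz2 myeloid cells. Among 9 shuttles and unfoldase genes, 5 were higher in astrocyte-like and 4 in mature oligodendrocyte-like cells, and 0 were higher in the 3 other classes set against microglia-like cells. Beside the 39.4% and 34.8% of all genes that were higher in astrocyte-like and mature oligodendrocyte-like cells, these counts over a short list are a description, as are those of the lists that follow. Vcp, the unfoldase that extracts ubiquitinated proteins, had 363.7 CPM in astrocyte-like against 175.8 CPM in microglia-like cells, and the shuttle gene Ubqln2 had 93.41 against 35.81 CPM.

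Of 4 ubiquitin precursor and activating enzyme genes, 2 were at least 1.5-fold lower in astrocyte-like cells. There, Ubb had 1061 against 3343 CPM in microglia-like cells and Rps27a, a fusion of ubiquitin with a ribosomal protein, 475.6 against 1889 CPM, while Ubb had 5215 CPM in Clec7a Lyz2 myeloid cells. Both listed genes of deubiquitinases that associate with the 19S particle were at least 1.5-fold higher in cycling cells. Usp14 had 98.03 against 54.58 CPM and Uchl5 40.94 against 15.89 CPM. The lid deubiquitinase gene Psmd14, a member, was short of that limit. Of 5 other subunits and assembly factors, 3 were higher in cycling cells, Pomp among them, the chaperone that matures the 20S core, with 429.5 against 271.6 CPM. Among the 5 genes of transcriptional control past the filter, Nfe2l1 was higher in astrocyte-like cells with 37.8 against 23.75 CPM (log2 0.65). Nfe2l2, the related factor NRF2, had 62.28 CPM in mature oligodendrocyte-like and 192.1 CPM in Clec7a Lyz2 myeloid cells, against 109.3 CPM in microglia-like cells.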

How the data were processed

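The deposited file is a single matrix of raw UMI counts made with Cell Ranger 7.0.0, per the file headers, and the authors pooled 6 libraries in it. The labels name the build mm10 although the gene identifiers are rat Ensembl ones. Barcodes with at least 500 UMIs, 200 genes and at most 20% mitochondrial UMIs were kept (48704 of 58078, since 9227 exceeded the mitochondrial limit and 177 fell under the minimums). The 3904 cells with the most simulated doublets among their neighbours were removed, in a share that grew with the barcodes of the library. The remaining cells were clustered in Python 3.11.15 (scikit-learn 1.9.0, leidenalg 0.10.2) on 2000 variable genes without members or pathway genes, 30 principal components, 15 neighbours and resolution 1.0. Clusters were named from marker lists. The naming rule was changed several times after markers and cluster sizes were seen, before any proteasome value was computed. Under earlier versions most Clec7a Lyz2 cells were named border macrophage-like. The members and lists were chosen with earlier results of these data known.

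UMIs were summed per class and divided by the class total to give CPM. Ratios add 1 CPM to both sides, over the 9625 genes with a mean of at least 10 CPM over the classes with at least 100 cells. A ratio of at least 1.5 is a limit of size and not a test. The pooled matrix counts as 1 sample, so there is no p-value, and intervals (95%) cover counting error only. By the rule for named genes, the 5 highest and 5 lowest members of a comparison, every other member and the fixed pathway lists could be named. The scripts were tested on simulated data. The planned edgeR comparison of irradiated with control samples was not run, because 0 of 6 libraries could be tied to a label. Promoters come from RefSeq (GRCr8). Alternatives of scaling, filter, fold, added CPM, mitochondrial limit, doublets, resolution, naming and libraries were computed.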

Additional observations from a re-analysis of the deposited data

Results flagged for a closer look

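Of 40 checks of whether 1 library stands apart within a class, 6 did so, where chance gives about 1 in 20. In microglia-like cells, library 6, with 157 such cells, had 5071 CPM of all members, against 3853 to 4160 CPM in the other 5 libraries. Its alpha ring sum was 1178 CPM (others 900.8 to 1004) and its activators and inhibitors summed to 1130 CPM (others 539.5 to 734.6). The immunoproteasome sum of that library was 688.8 CPM, against 313.6 to 453.7 CPM in the others. Cluster 8, high in microglia markers but counted apart, had 386 cells in library 6, with 4592 CPM of all members.

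In astrocyte-like cells, library 3 had 1301 CPM of the alpha ring (others 978.4 to 1068) and 1528 CPM of the beta ring (others 1023 to 1209). Of its 364 such cells, 255 came from cluster 9 and 4 from cluster 0, the largest astrocyte-like cluster. The part of this makeup in both sums was not tested. Cluster 13, high in astrocyte markers but counted apart, held 1186 cells of library 3. There it had 1200 CPM of the alpha ring and 1408 CPM of the beta ring. In cluster 8, library 2, with 64 such cells, had 96.76 CPM of the assembly chaperones (others 130.8 to 136.4).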

How the results depend on the processing

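No paired analysis was possible because no library could be tied to a labelled sample, so neither the comparison of irradiated with control samples nor its replicate block was run. Of the counts of members at least 1.5-fold higher or lower under the alternatives, 201 stayed within 1.5 times the reported count, 12 were larger and 13 smaller. Of the single members' ratios, the medians and the sums, 34 ratios came back within the limit, 21 passed it, 77 medians or sums moved (a median by over 0.1 or a sum out of its counting interval) and 1283 did none of these. At a 2-fold limit the members counted as higher than in microglia-like cells were 4 for astrocyte-like, 4 for mature oligodendrocyte-like, 3 for T or NK cell-like, 1 for cycling and 0 for Clec7a Lyz2 myeloid cells. Median-of-ratios scaling, which moves the median of all genes to -0.13, -0.11, -0.10, -0.07 and -0.04 in the same order, gave 3, 7, 6, 4 and 2 higher, with 4 lower in astrocyte-like and 2 lower in Clec7a Lyz2 myeloid cells. Scaling without mitochondrial and ribosomal protein genes gave 18 higher for T or NK cell-like and 9 for Clec7a Lyz2 myeloid cells. A filter of 50 CPM gave 5 for T or NK cell-like cells, where fewer members were tested. Naming each cell by its highest marker score gave 10 for cycling cells. For Clec7a Lyz2 myeloid cells the median over libraries gave 0 higher, and doublets kept and resolution 0.5 gave 2 and 1 lower. Leaving out 1 library at a time gave 0 to 2 lower, with 2 without library 1, 2 or 5. Leaving out each library otherwise gave 10 to 12 higher for astrocyte-like, 20 for mature oligodendrocyte-like, 7 to 12 for T or NK cell-like, 17 to 20 for cycling and 4 to 5 for Clec7a Lyz2 myeloid cells. The shares of all genes under these alternatives are not given, here or below, so such counts describe the members alone.

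For clusters 16 and 18 together, resolution 0.5 gave 3 higher and 7 lower, where that label covers other cells. Cluster 18 alone, chosen after seeing the data like the addition of clusters 8 and 13 to the classes they resemble, gave 1 higher. The comparison of both together had no value at a mitochondrial limit of 10% or by highest marker score. The summed level of all members ranged over the alternatives from 4075 to 5567 CPM in astrocyte-like, 5232 to 6554 in mature oligodendrocyte-like, 5159 to 7491 in T or NK cell-like, 5427 to 7393 in cycling, 4552 to 6079 in Clec7a Lyz2 myeloid and 3907 to 4550 in microglia-like cells. The cause of these shifts was not tested. Low counts limit neutrophil-like and chaperone values.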

Other observations

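Among the smaller groups of cells, cluster 33 (42 cells) had the highest summed level of all members, at 8005 CPM, with an immunoproteasome share of 9.43%. The 39 monocyte-like cells had 5743 CPM, the 67 mural cell-like cells 6167 CPM and the 74 B cell-like cells 4651 CPM. Cluster 13, of whose 1201 cells 1186 came from library 3, had 5094 CPM of all members and the highest Psme4 level of the clusters with at least 100 cells apart from astrocyte-like cluster 11, at 176.3 CPM. PA28αβ stood at 1278 CPM in the 142 cells of Clec7a Lyz2 myeloid cluster 25. This was above the 780.3 CPM of cluster 2, the 886.9 CPM of cluster 6 and the 1214 CPM of cluster 18.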
